A study of Mus musculus with 18 samples.

Results

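The transcription factors that hold cortical radial glia in their progenitor state and give the cortex its regional pattern were measured by RNA-seq and Ribo-seq in E15.5 mouse cerebral cortex. They are 9 genes, chosen by name and matched by Ensembl identifier and symbol: *Pax6*, *Sox2*, *Sox9*, *Emx1*, *Emx2*, *Lhx2*, *Nr2f1*, *Nr2f2* and *Sp8*. All 9 were found among the 55153 genes of the RNA-seq table and the 54838 of the Ribo-seq table, all 9 were among the 14348 Ribo-seq genes with a count in every library, and all 9 passed the filter on low counts in every comparison. Ctrl, *F*-cKO and *M*-cKO cortex were compared, with 3 libraries each per assay and 18 in all. Ctrl libraries are labelled wild type. *F*-cKO libraries carry Fto(f/f, Emx1-cre), a floxed *Fto* gene, which encodes an RNA demethylase, deleted in the cortex. *M*-cKO libraries carry Mettl3(f/f, Emx1-cre), with deletion of *Mettl3*, the catalytic subunit of the N6-methyladenosine methyltransferase. The label gives the strain of all samples as C57BL/6, and the methods give the floxed mice a mixed background. Whether Ctrl embryos carried Cre or floxed alleles is not given in the sources used here. Cre was driven by the *Emx1* promoter, so interneurons, vessels and other cells that never expressed *Emx1* keep the gene. *Emx1* is thus both a gene under study and the source of the driver, and whether Cre sits in the *Emx1* locus is not given in the sources used here. For *Emx1*, a difference between knockout and Ctrl and a difference made by the Cre allele cannot be told apart.

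Radial glia are the stem cells of the embryonic cortex. They line the ventricle and divide to give further radial glia, intermediate progenitors and neurons. *Sox2* and *Pax6* maintain these cells, *Sox9* acts in neural stem cells and in the later switch to glia, and *Lhx2*, *Emx1* and *Emx2* specify cortical identity at the expense of neighbouring forebrain tissue. Position within the cortex is set by graded factors. *Emx2*, *Nr2f1* and *Nr2f2* are strongest caudally, while *Pax6* and *Sp8* are strongest rostrally. *Nr2f2* and *Sp8* are also made by interneurons and their progenitors in the ganglionic eminences, below the cortex.

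The 250 bases before the RefSeq start are shown for the genes whose responses are contrasted most often here. *Sox2* and *Nr2f2* both rose in *M*-cKO in both assays, and the paralogues *Emx1* and *Emx2* are set against each other. In RefSeq on GRCm38.p6 the windows are chr3:34649745-34649994 on the plus strand for *Sox2*, chr7:70366747-70366996 on the minus strand for *Nr2f2*, chr6:85187681-85187930 on the plus strand for *Emx1* and chr19:59458440-59458689 on the plus strand for *Emx2*. Capitals mark GGGCGG (the GC box) and CCAAT on either strand, which can share bases only at their ends.
Sox2: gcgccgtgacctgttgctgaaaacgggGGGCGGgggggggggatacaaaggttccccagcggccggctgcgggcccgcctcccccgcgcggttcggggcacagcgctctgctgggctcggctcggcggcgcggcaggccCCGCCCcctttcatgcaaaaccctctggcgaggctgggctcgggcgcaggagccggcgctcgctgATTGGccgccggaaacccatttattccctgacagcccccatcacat
Nr2f2: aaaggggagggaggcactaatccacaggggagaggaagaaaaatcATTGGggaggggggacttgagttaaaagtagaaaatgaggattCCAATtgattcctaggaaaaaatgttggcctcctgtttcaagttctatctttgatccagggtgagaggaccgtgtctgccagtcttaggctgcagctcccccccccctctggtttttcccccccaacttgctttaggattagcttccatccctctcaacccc
Emx1: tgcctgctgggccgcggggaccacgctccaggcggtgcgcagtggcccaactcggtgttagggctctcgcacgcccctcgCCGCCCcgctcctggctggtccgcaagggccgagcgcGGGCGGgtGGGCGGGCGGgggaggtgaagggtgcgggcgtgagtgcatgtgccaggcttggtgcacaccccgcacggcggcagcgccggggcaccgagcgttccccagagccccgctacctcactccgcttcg
Emx2: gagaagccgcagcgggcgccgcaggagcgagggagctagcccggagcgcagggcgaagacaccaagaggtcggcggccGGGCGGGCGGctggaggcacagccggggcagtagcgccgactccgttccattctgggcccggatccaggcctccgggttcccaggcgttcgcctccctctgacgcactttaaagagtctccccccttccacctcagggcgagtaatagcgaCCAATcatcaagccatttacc
The table held a window for 8 of the 9 genes, with none for *Sox9*. GGGCGG was present in 5 of the 8 windows (*Sox2*, *Emx1*, *Emx2*, *Lhx2* and *Nr2f1*), compared with 32.9% of 27025 promoters of the same length. CCAAT was present in 5 of 8 (*Pax6*, *Sox2*, *Emx2*, *Nr2f2* and *Sp8*), compared with 34.5%. The windows differed in base composition. The G and C share was 75.6% for *Emx1*, 72.0% for *Sox2* and 67.2% for *Emx2*, but 50.0% for *Nr2f2*, where the median promoter had 52.0%. The letters searched for the members' own classes were rarer. AGGTCA, a nuclear receptor core, was found in the *Sox2* window alone (13.8% of all promoters), ACAAT, a SOX core with its last 4 letters in common with CCAAT, in the *Pax6* window alone (28.3%), and TAATTA, a homeodomain core, in none of the 8 (4.9%). TATAAA was found in the *Sp8* window alone (13.0%). The motifs were picked after the values were seen, and a match describes letters only.

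Counted reads per library ranged from 18504094 to 22592406 in RNA-seq and from 10973699 to 35853227 in Ribo-seq. *Fto* fell in *F*-cKO RNA-seq (log2 fold change -1.21 ± 0.33 SE, adjusted *P* = 0.0298), with 3.26, 7.56 and 2.43 FPKM in *F*-cKO replicates 1 to 3 compared with 8.37 to 11.2 in Ctrl, so replicate 2 stood closest to Ctrl. The *Fto* call was lost without Ctrl replicate 1, 2 or 3 or *F*-cKO replicate 1. In *F*-cKO Ribo-seq the *Fto* change was -2.67 ± 0.25 (adjusted *P* = 0.35), and in *M*-cKO RNA-seq *Fto* rose (0.36 ± 0.10, adjusted *P* = 0.0168). *Mettl3* was higher, not lower, in *M*-cKO RNA-seq (0.50 ± 0.09, adjusted *P* = 0.0022) and lower in Ribo-seq (-0.55 ± 0.09, adjusted *P* = 0.0157). Both are counted over the whole gene while the deletions take exon 3 of *Fto* and exons 2 and 3 of *Mettl3*, so these counts check the labels only in part. Over all genes tested in RNA-seq, 11.5% were called higher and 9.57% lower in *F*-cKO, and 15.5% and 14.1% in *M*-cKO. In RNA-seq the 6 excitatory neuron markers had sums of 698 to 709 FPKM (Ctrl), 767 to 786 (*F*-cKO) and 858 to 882 (*M*-cKO), with no overlap between groups, and 2 of the 6 rose in *F*-cKO while 4 rose and 1 fell in *M*-cKO. The 4 thalamic markers summed to 1.97 to 2.96 FPKM in Ctrl, below the sums in *F*-cKO (3.35 to 4.31) and *M*-cKO (3.53 to 4.07), and 1 of the 3 tested rose in each knockout. The part of these cells in the differences of the factors was not tested. Some libraries stood apart. RNA-seq Ctrl replicate 3 was the lowest of all 9 libraries for 8 of the 9 factors. Ribo-seq *F*-cKO replicate 2 had a summed RPKM of 83.3 over 5 endothelial markers, compared with 4.09 to 8.38 in the other 8 Ribo-seq libraries. The shift was not limited to endothelial markers. That library was also highest for 22 patterning signals and receptors (115, with 33.3 to 39.3 in the others) and 5 meningeal markers (43.1, with 1.70 to 23.2). Its excitatory marker sum, 550 RPKM, was the lowest in Ribo-seq. The summed FPKM of 4 choroid plexus markers ran from 69.0 to 795 within Ctrl RNA-seq. Counts of changed factors are therefore also given without the libraries that alter them. Libraries are bulk tissue, in which fewer cells of a type and less RNA per cell cannot be told apart. *P* values weigh the difference between groups against the spread between the libraries, which the labels call biological repeats. The wording of the methods leaves unclear whether the Ribo-seq samples of a group shared a litter, in which case litter and genotype cannot be told apart.

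In Ctrl cortex the factors spanned a wide range of transcript levels per length. *Lhx2* was the most abundant, with 84.8, 87.8 and 72.5 FPKM, and lay above every other factor in all 3 libraries. *Nr2f1* (43.8 to 54.2 FPKM) and *Sox2* (42.6 to 52.2 FPKM) followed, and their ranges overlapped. *Emx1* came next at 16.8 to 31.7 FPKM. *Sox9* (9.71 to 12.2 FPKM), *Emx2* (8.11 to 11.9 FPKM) and *Nr2f2* (6.00 to 10.2 FPKM) overlapped each neighbour, *Pax6* (4.15 to 5.99 FPKM) lay just below *Nr2f2*, and *Sp8* was lowest at 2.09 to 2.72 FPKM. Among protein-coding genes with footprints and at least 1 FPKM in Ctrl, *Lhx2* stood at percentile 96.0 and *Sp8* at percentile 14.4 of Ctrl FPKM.

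Footprint levels did not follow the same order. In Ribo-seq, mRNA fragments protected by ribosomes are sequenced, and the ratio of footprint RPKM to RNA FPKM is the translation efficiency (TE). The mean Ctrl RPKM of *Nr2f1*, *Lhx2*, *Sox2* and *Sox9* lay between 32.6 and 37.1, with overlapping ranges, although their FPKM ran from 11.1 to 81.7. *Sox9* had the highest TE level of the 9, at 2.93 in Ctrl (*F*-cKO 2.47, *M*-cKO 2.88), and stood at percentile 94.9 of protein-coding genes with at least 1 FPKM in Ctrl. *Emx1* and *Lhx2* had the lowest, with 0.364 and 0.448 in Ctrl, compared with a median of 0.856 over 11252 protein-coding genes. The lengths implied for the 2 assays differed by the same factor of 0.826 for all 9 genes, so this length cancels in the ratio. The share of untranslated sequence does not cancel, since the paper reports that footprints lay mainly in coding sequence. Its part in the order of the TE levels was not tested. These TE levels are ratios of group means, and no test was run on their order.

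The first comparison asks which factors change at the transcript level when the demethylase is lost. In *F*-cKO RNA-seq, 5 of the 9 factors rose and 0 fell, where 11.5% of 16944 genes were called higher and 9.57% lower by edgeR's quasi-likelihood test at an adjusted *P* below 0.05. *Pax6*, *Sox2* and *Sox9* rose, as did *Emx2* and *Sp8*. The median log2 fold change was 0.44 over the 9 factors and -0.01 over all genes tested. Markers of other cells differed in the same comparison. All 4 intermediate progenitor markers (*Eomes*, *Neurog1*, *Neurog2* and *Btg2*) rose, with a median of 0.75 and a summed FPKM of 172 to 225 compared with 85.1 to 143 in Ctrl, though 1 passed without *F*-cKO replicate 2. Of 5 markers of meninges and mesenchyme, 2 fell (*Col1a1* and *Col1a2*) and the median was -1.20, with a summed FPKM of 2.35 to 8.98 compared with 10.5 to 20.3 in Ctrl. Of these 5, none passed without Ctrl replicate 2, Ctrl replicate 3 or *F*-cKO replicate 2, 1 passed without Ctrl replicate 1 and 5 passed without *F*-cKO replicate 3. The part of these cells in the rise of the factors was not tested.

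**Figure D1:**
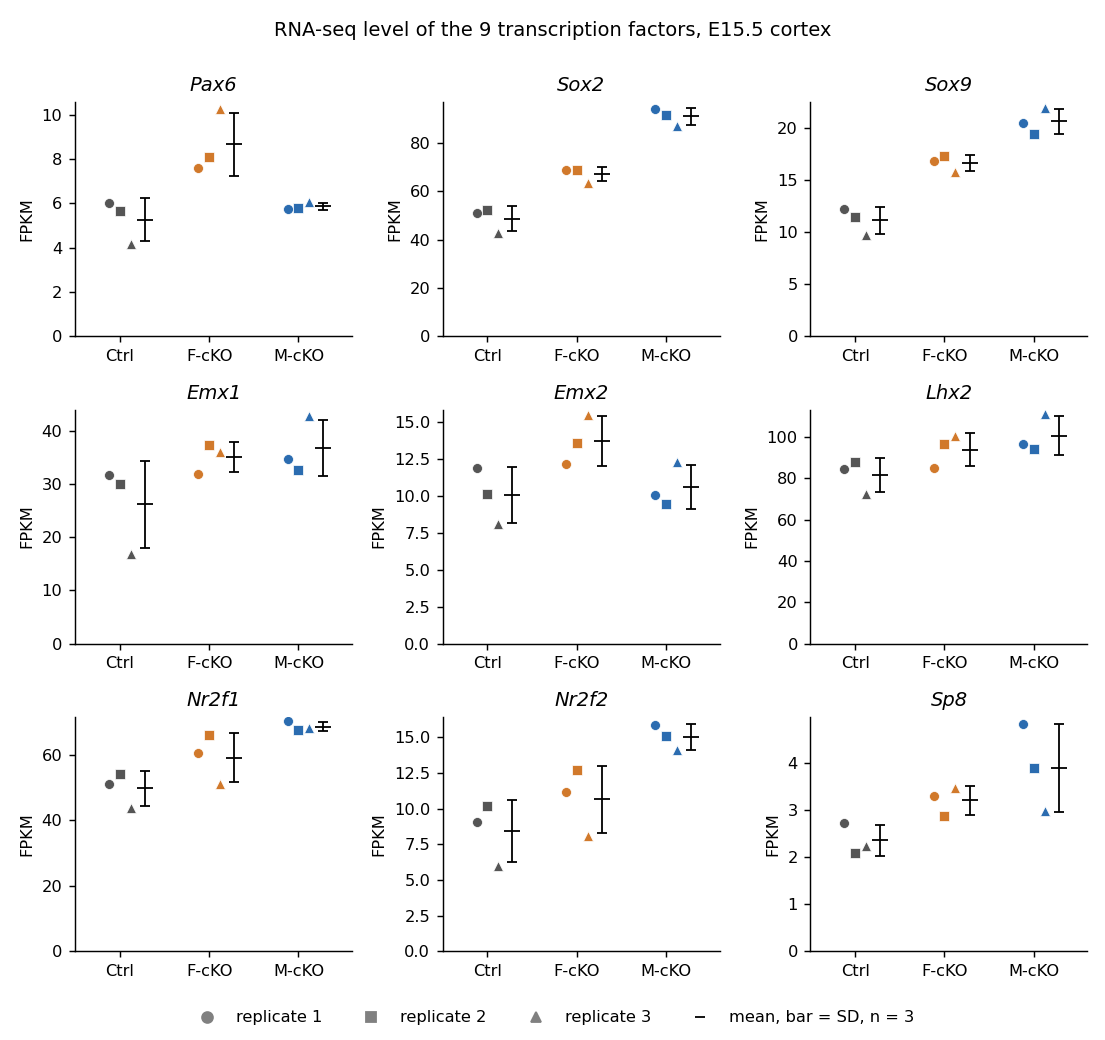
RNA-seq level (FPKM, linear axis from 0) of each factor in the 3 Ctrl, 3 *F*-cKO and 3 *M*-cKO libraries, with symbols for replicates 1 to 3 and the mean with SD (n = 3) beside them. *Sox2* and *Sox9* step up from Ctrl to *F*-cKO to *M*-cKO without overlap, *Pax6* is high in *F*-cKO (7.61 to 10.3) alone, and Ctrl replicate 3 is the lowest library in 8 of the 9 panels.

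*Pax6*, the homeodomain factor of dorsal radial glia, was measured at 5.99, 5.64 and 4.15 FPKM in Ctrl and at 7.61, 8.09 and 10.3 FPKM in *F*-cKO. The groups did not overlap, and the log2 fold change was 0.71 ± 0.14 SE (adjusted *P* = 0.0102). In *M*-cKO the values were 5.75, 5.77 and 6.04 FPKM, within or just above the Ctrl range (0.14 ± 0.11, adjusted *P* = 0.364, 95% interval -0.10 to 0.39). With 1 library left out the *M*-cKO change ran from 0.01 to 0.25 and never passed. The direct comparison of the knockouts placed *Pax6* lower in *M*-cKO than in *F*-cKO, by -0.58 ± 0.10 (adjusted *P* = 0.00337), with no overlap between the 2 groups.

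*Sox2*, which keeps neural progenitors undifferentiated, read 51.0, 52.2 and 42.6 FPKM in Ctrl, 68.8, 68.8 and 63.6 FPKM in *F*-cKO, and 94.1, 91.8 and 87.3 FPKM in *M*-cKO. Every *F*-cKO library lay above every Ctrl library and every *M*-cKO library above both. The log2 fold change against Ctrl was 0.45 ± 0.08 in *F*-cKO (adjusted *P* = 0.0064) and 0.90 ± 0.08 in *M*-cKO (adjusted *P* = 3.19e-05), and *M*-cKO exceeded *F*-cKO by 0.43 ± 0.06 (adjusted *P* = 0.000941). The long gene *Sox2ot*, in whose span *Sox2* lies, did not pass the test in either knockout (*F*-cKO 0.09 ± 0.07, adjusted *P* = 0.442; *M*-cKO 0.25 ± 0.12, adjusted *P* = 0.122).

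*Sox9* showed the same stepped order. Its levels were 12.2, 11.4 and 9.71 FPKM in Ctrl, 16.8, 17.3 and 15.8 FPKM in *F*-cKO, and 20.5, 19.5 and 21.9 FPKM in *M*-cKO, with no overlap between any pair of groups. *Sox9* rose by 0.57 ± 0.09 in *F*-cKO (adjusted *P* = 0.0041) and by 0.88 ± 0.09 in *M*-cKO (adjusted *P* = 5.73e-05). The difference between the knockouts, 0.30 ± 0.07, also passed (adjusted *P* = 0.00875). *Pax6*, *Sox2* and *Sox9* kept their *F*-cKO calls with each of the 6 libraries left out in turn, with an adjusted *P* of at most 0.0298.

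The calls of *Emx2* and *Sp8* were lost when most single libraries were left out. *Emx2* was measured at 11.9, 10.1 and 8.11 FPKM in Ctrl and 12.2, 13.6 and 15.5 FPKM in *F*-cKO, which is a log2 fold change of 0.44 ± 0.14 (adjusted *P* = 0.047). *Sp8*, a zinc finger factor of rostral cortex, had 2.72, 2.09 and 2.24 FPKM in Ctrl and 3.29, 2.86 and 3.45 FPKM in *F*-cKO (0.44 ± 0.13, adjusted *P* = 0.0439). The groups did not overlap for either gene. Without RNA-seq Ctrl replicate 3 both calls were lost (adjusted *P* = 0.135 for *Emx2* and 0.134 for *Sp8*), as they were without Ctrl replicate 2 (0.097 and 0.127), *F*-cKO replicate 2 (0.108 and 0.0582) and *F*-cKO replicate 3 (0.116 and 0.104). *Sp8* was also lost without *F*-cKO replicate 1 (0.0859). The log2 fold changes with 1 library left out stayed positive, from 0.31 to 0.59 for *Emx2* and from 0.36 to 0.56 for *Sp8*. Without Ctrl replicate 2, Ctrl replicate 3 or *F*-cKO replicate 2, 3 of the 9 factors were called in place of 5. The number of all genes called higher also dropped, from 1955 to 1488, 984 and 1148 in that order. With all 9 RNA-seq libraries in a single fit *Sp8* was lost too (0.45, adjusted *P* = 0.0723).

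The other 4 factors did not pass in *F*-cKO RNA-seq. The log2 fold changes were 0.41 ± 0.19 for *Emx1* (adjusted *P* = 0.155), 0.33 ± 0.19 for *Nr2f2* (0.26), 0.24 ± 0.10 for *Nr2f1* (0.129) and 0.19 ± 0.09 for *Lhx2* (0.151). All 4 were positive, and *Emx1* alone of the 4 had groups that did not overlap, by 31.8 FPKM in the lowest *F*-cKO library and 31.7 in the highest Ctrl library. These values moved with single libraries. With 1 library left out they ran from 0.17 (without Ctrl replicate 3) to 0.57 (without Ctrl replicate 1) for *Emx1*, from 0.13 (without Ctrl replicate 3) to 0.49 (without Ctrl replicate 2) for *Nr2f2*, from 0.11 (without Ctrl replicate 3) to 0.27 (without *F*-cKO replicate 1) for *Lhx2* and from 0.15 (without *F*-cKO replicate 2) to 0.33 (without *F*-cKO replicate 3) for *Nr2f1*. *Nr2f1* passed when *F*-cKO replicate 3 was left out (adjusted *P* = 0.0287), while *Emx1*, *Nr2f2* and *Lhx2* did not pass with any of the 6 libraries left out.

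The second comparison asks the same of the methyltransferase. In *M*-cKO RNA-seq, 6 of the 9 factors rose and 0 fell, where 15.5% of 16968 genes were called higher and 14.1% lower. They were *Sox2* and *Sox9*, described above, the COUP-TF receptors *Nr2f1* and *Nr2f2*, *Sp8* and *Lhx2*. The median over the 9 was 0.48, compared with -0.01 over all genes tested. Both knockouts were compared with the same 3 Ctrl libraries.

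*Nr2f2*, which marks caudal cortex and the caudal ganglionic eminence, had 9.05, 10.2 and 6.00 FPKM in Ctrl, 11.1, 12.7 and 8.11 FPKM in *F*-cKO and 15.9, 15.1 and 14.1 FPKM in *M*-cKO. The *M*-cKO libraries lay above all others. *Nr2f2* rose by 0.83 ± 0.14 against Ctrl (adjusted *P* = 0.00169) and was 0.49 ± 0.13 higher in *M*-cKO than in *F*-cKO (adjusted *P* = 0.0173), the latter reaching 0.0503 without *M*-cKO replicate 1. Its relative *Nr2f1*, which sets caudal area identity, had 51.0, 54.2 and 43.8 FPKM in Ctrl and 70.1, 67.5 and 68.0 FPKM in *M*-cKO. *Nr2f1* rose by 0.45 ± 0.08 (adjusted *P* = 0.00123), again without overlap. The ratio of *Nr2f1* to *Nr2f2* FPKM was 6.09 ± 1.07 (SD, n = 3) in Ctrl and 4.57 ± 0.222 in *M*-cKO, with 5.63 ± 0.57 in *F*-cKO.

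*Sp8* in *M*-cKO had 4.82, 3.88 and 2.97 FPKM, all above the Ctrl libraries, and rose by 0.72 ± 0.17 (adjusted *P* = 0.00861). *Lhx2*, a LIM-homeodomain selector of cortical fate, had 96.7, 94.1 and 111 FPKM against 84.8, 87.8 and 72.5 in Ctrl. This was a small rise of 0.29 ± 0.09 (adjusted *P* = 0.0236), lost without Ctrl replicate 3 (adjusted *P* = 0.0755) or *M*-cKO replicate 3 (0.0593). *Emx1* had 34.8, 32.7 and 42.7 FPKM, above all Ctrl libraries, and missed the threshold (0.48 ± 0.19, adjusted *P* = 0.0756), but passed without Ctrl replicate 1 (0.049) or Ctrl replicate 2 (0.0453). The *Emx1* change was 0.25 (adjusted *P* = 0.226) without Ctrl replicate 3 and 0.63 without Ctrl replicate 1. *Emx2* was measured at 10.1, 9.45 and 12.3 FPKM, inside or close to the Ctrl range (0.07 ± 0.14, adjusted *P* = 0.76, 95% interval -0.23 to 0.36).

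Set directly against each other, *M*-cKO was higher than *F*-cKO for 3 factors (*Sox2*, *Sox9* and *Nr2f2*) and lower for 2 (*Pax6* and *Emx2*), where 13.1% of 16802 genes were called higher and 14.3% lower. The *Emx2* difference was -0.39 ± 0.12 (adjusted *P* = 0.0345). It was lost without *F*-cKO replicate 2 (0.0902), *F*-cKO replicate 3 (0.109), *M*-cKO replicate 1 (0.113) or *M*-cKO replicate 2 (0.137). *Emx1*, *Lhx2*, *Nr2f1* and *Sp8* did not pass, with log2 differences of 0.06 to 0.27. *Nr2f1* passed without *F*-cKO replicate 2 (0.0457) and *Sp8* without *M*-cKO replicate 3 (0.049). With 1 library left out, *Sp8* ran from 0.10 (without *M*-cKO replicate 1, adjusted *P* = 0.684) to 0.45 (without *M*-cKO replicate 3), and *Nr2f1* from 0.12 (without *F*-cKO replicate 3, 0.211) to 0.30 (without *F*-cKO replicate 2). Markers of other cells differed between the knockouts as well. In *M*-cKO, 8 of 9 eminence markers were higher (median 0.68), as were all 4 erythroid markers (median 0.53) and 3 of 5 markers of meninges and mesenchyme (median 1.54), while 2 of 4 intermediate progenitor markers were lower (median -0.37). With 1 library left out, the number higher was 4 to 9 for the eminences, 2 to 4 for erythroid cells and 0 to 4 for meninges, and the number lower was 0 to 4 for intermediate progenitors. Without *F*-cKO replicate 2, *M*-cKO replicate 2 or *M*-cKO replicate 3 no meningeal marker passed. The part of these cells in the differences of the factors was not tested.

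Several of these loci overlap other genes, and neither the library kit nor the counting is stated to keep strand, so reads of overlapping genes cannot be told apart. Inside *Lhx2* lie the lncRNAs *Gm27197* and *Gm13584*, and both fell in *M*-cKO RNA-seq while *Lhx2* rose. *Gm27197* went from 8.01, 9.75 and 9.70 FPKM in Ctrl to 3.77, 4.76 and 6.42 FPKM in *M*-cKO, a log2 fold change of -0.88 ± 0.22 (adjusted *P* = 0.0119), on a mean of 90.7 reads in Ctrl. *Gm13584* went from 2.37, 2.35 and 2.21 FPKM to 0.95, 1.31 and 0.825 FPKM (-1.18 ± 0.29, adjusted *P* = 0.0111), on a mean of 29.0 reads in Ctrl. *A830082K12Rik*, which overlaps the start of *Nr2f1*, rose with it in *M*-cKO (0.24 ± 0.07, adjusted *P* = 0.0228) and also passed in *F*-cKO (0.22 ± 0.07, adjusted *P* = 0.0435). *Pax6os1* and *Elp4*, which overlap *Pax6*, and *B130024G19Rik*, which overlaps *Nr2f2*, did not pass in either knockout against Ctrl in RNA-seq. For *Sox9*, *Emx1*, *Emx2* and *Sp8* the RefSeq table shows no overlapping gene.

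The third comparison asks whether ribosome occupancy changed too. In *M*-cKO Ribo-seq, 4 factors rose (*Sox2*, *Sox9*, *Emx1* and *Nr2f2*) and 0 fell, where 7.13% of 14314 genes were called higher and 7.5% lower. The median was 0.59 over the 9 factors and -0.00 over all genes tested.

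**Figure D2:**
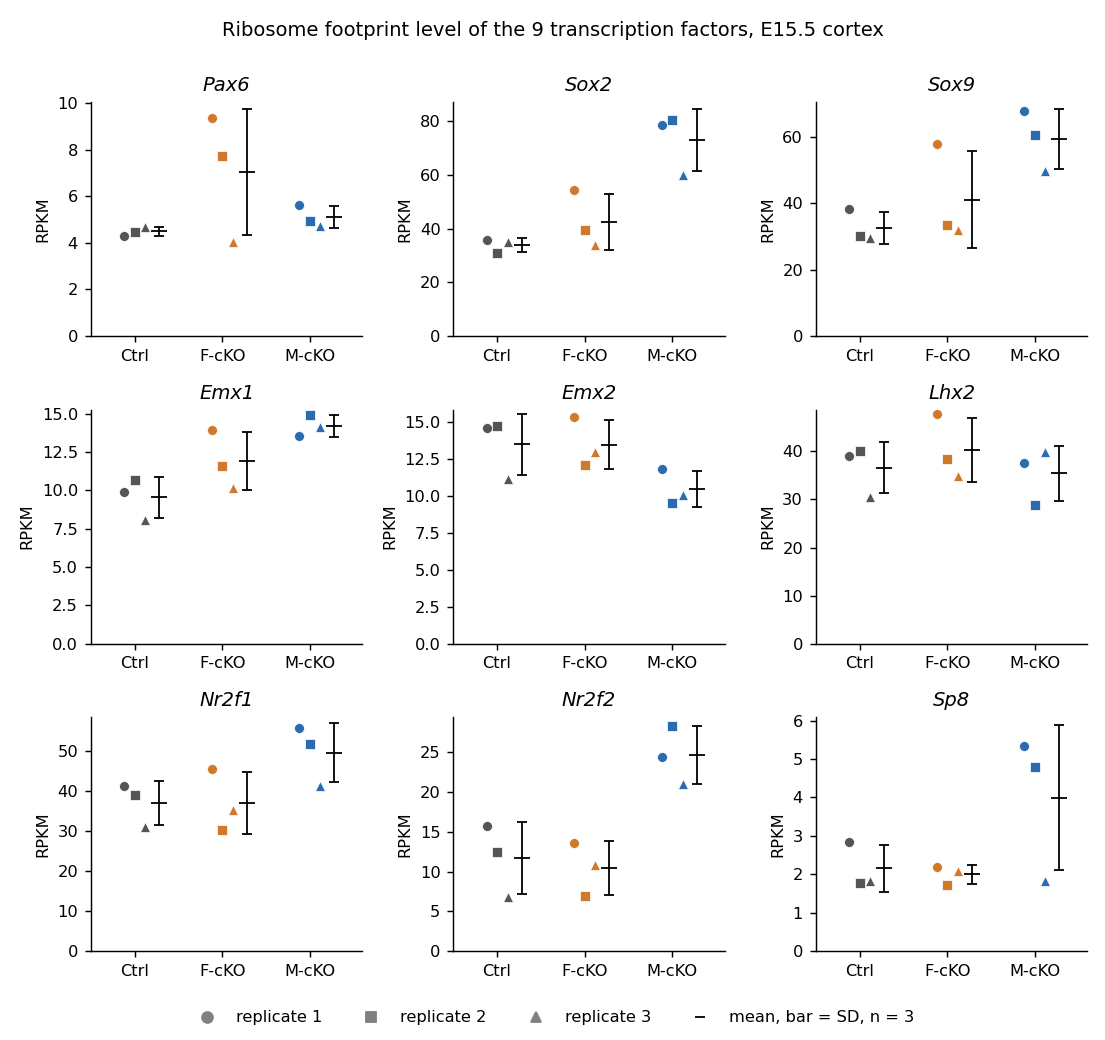
Footprint level (RPKM, linear axis from 0) of each factor in the 9 Ribo-seq libraries, with symbols for replicates 1 to 3 and the mean with SD (n = 3). For *Sox2*, *Sox9*, *Emx1*, *Nr2f2* and, narrowly, *Pax6* the 3 *M*-cKO libraries lie above all Ctrl libraries, and *F*-cKO replicate 1 is the highest *F*-cKO library in all 9 panels.

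*Sox2* footprints were at 35.7, 30.9 and 35.1 RPKM in Ctrl and 78.8, 80.6 and 59.9 RPKM in *M*-cKO, with a wide gap between the groups. The rise was 1.12 ± 0.15 (adjusted *P* = 0.00817), and it passed with each of the 6 libraries left out in turn (adjusted *P* at most 0.0493). *Sox9* footprints were at 38.2, 30.1 and 29.6 RPKM in Ctrl and 67.8, 60.7 and 49.7 RPKM in *M*-cKO. That rise of 0.88 ± 0.15 (adjusted *P* = 0.0163) was lost without Ctrl replicate 2 (0.0826) or Ctrl replicate 3 (0.0556), where its size was 0.82 and 0.83.

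*Nr2f2* footprints were at 15.7, 12.5 and 6.81 RPKM in Ctrl and 24.4, 28.3 and 21.0 RPKM in *M*-cKO. *Nr2f2* rose by 1.09 ± 0.29 (adjusted *P* = 0.0444). *Emx1* footprints were at 9.92, 10.7 and 8.04 RPKM in Ctrl and 13.5, 14.9 and 14.2 RPKM in *M*-cKO, a rise of 0.59 ± 0.14 (adjusted *P* = 0.0347). Neither group pair overlapped, yet both calls were lost when Ctrl replicate 1 (0.059 for *Nr2f2* and 0.0901 for *Emx1*), Ctrl replicate 2 (0.129 and 0.0938), Ctrl replicate 3 (0.058 and 0.0827), *M*-cKO replicate 1 (0.0827 and 0.0585) or *M*-cKO replicate 2 (0.0866 and 0.0622) was left out. The log2 fold changes with 1 library left out ran from 0.84 to 1.37 for *Nr2f2* and from 0.50 to 0.67 for *Emx1*.

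*Sp8* footprints were at 5.34, 4.79 and 1.84 RPKM in *M*-cKO and 2.85, 1.79 and 1.83 RPKM in Ctrl. *M*-cKO replicate 3 sat at the Ctrl level and the other 2 libraries well above it, and *Sp8* did not pass (0.90 ± 0.40, adjusted *P* = 0.155). Without *M*-cKO replicate 3 it passed (1.26, adjusted *P* = 0.0173), as did *Nr2f1* (0.56, adjusted *P* = 0.0354), which with all libraries had 0.43 ± 0.16 (adjusted *P* = 0.0954). When all 9 Ribo-seq libraries shared a single fit, 0 factors were called in place of 4 (*Sox2* 1.15, adjusted *P* = 0.064, *Sox9* 0.90, 0.125, *Emx1* 0.61, 0.156, and *Nr2f2* 1.11, 0.141), and over all 14326 genes that fit called 29 higher and 6 lower, compared with 1020 and 1073 of 14314 in the fit of 6 libraries. Without *M*-cKO replicate 3 the number of factors called was 6, compared with 1 or 2 when Ctrl replicate 1, 2 or 3 or *M*-cKO replicate 1 or 2 was left out. The number of all genes called higher moved with it, to 1303 without *M*-cKO replicate 3 and to between 115 (without Ctrl replicate 2) and 771 (without *M*-cKO replicate 2) without 1 of the other libraries. DESeq2 on the same 6 libraries called 6 factors, adding *Sp8* (0.91, adjusted *P* = 0.0455) and *Nr2f1* (0.44, adjusted *P* = 0.0274), with 1597 genes higher and 1504 lower over all.

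*Emx2* and *Lhx2* had negative Ribo-seq values in *M*-cKO and did not pass. *Emx2* footprints were at 14.6, 14.7 and 11.1 RPKM in Ctrl and 11.8, 9.52 and 10.04 RPKM in *M*-cKO (-0.36 ± 0.14, adjusted *P* = 0.122). *Lhx2* footprints, at 37.6, 28.9 and 39.8 RPKM in *M*-cKO, overlapped the Ctrl libraries at 39.1, 40.1 and 30.5 RPKM (-0.04 ± 0.14, adjusted *P* = 0.868, 95% interval -0.36 to 0.29). *Pax6* was at 5.63, 4.96 and 4.73 RPKM against 4.31, 4.48 and 4.68 in Ctrl (0.20 ± 0.10, adjusted *P* = 0.211), the lowest *M*-cKO library lying next to the highest Ctrl library.

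*F*-cKO Ribo-seq gave no call, for the 9 factors or for any gene. In edgeR, 0.0% of 14335 genes were called in either direction, 318 genes had an unadjusted *P* below 0.05 and 0 of these were among the 9, while DESeq2 called 5 genes higher and 1 lower and none of the factors. *Pax6* was the widest, at 9.35, 7.75 and 4.04 RPKM in *F*-cKO and 4.31 to 4.68 RPKM in Ctrl (0.70 ± 0.31, adjusted *P* = 0.73, 95% interval -0.05 to 1.44). The interval includes the RNA-seq change of 0.71, and *F*-cKO replicate 3 lay below all Ctrl libraries. *Sox2* (54.3, 39.5 and 33.9 RPKM) and *Sox9* (58.0, 33.4 and 32.0 RPKM) both had 1 high *F*-cKO library and the other 2 within or near the Ctrl range, with log2 fold changes of 0.37 ± 0.19 and 0.37 ± 0.24. With 1 library left out these ran from 0.21 to 0.57 for *Sox2* and from 0.10 to 0.57 for *Sox9*. *F*-cKO replicate 1 was the highest of its group for all 9 factors. Between the knockouts, Ribo-seq called 0.0% of 14262 genes, with 1154 genes at an unadjusted *P* below 0.05. *Nr2f2* (1.25 ± 0.23) and *Sox2* (0.78 ± 0.22) were the 2 factors among them, and DESeq2 called 166 genes higher and 27 lower, with *Nr2f2* the only factor (adjusted *P* = 0.00314).

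**Figure D3:**
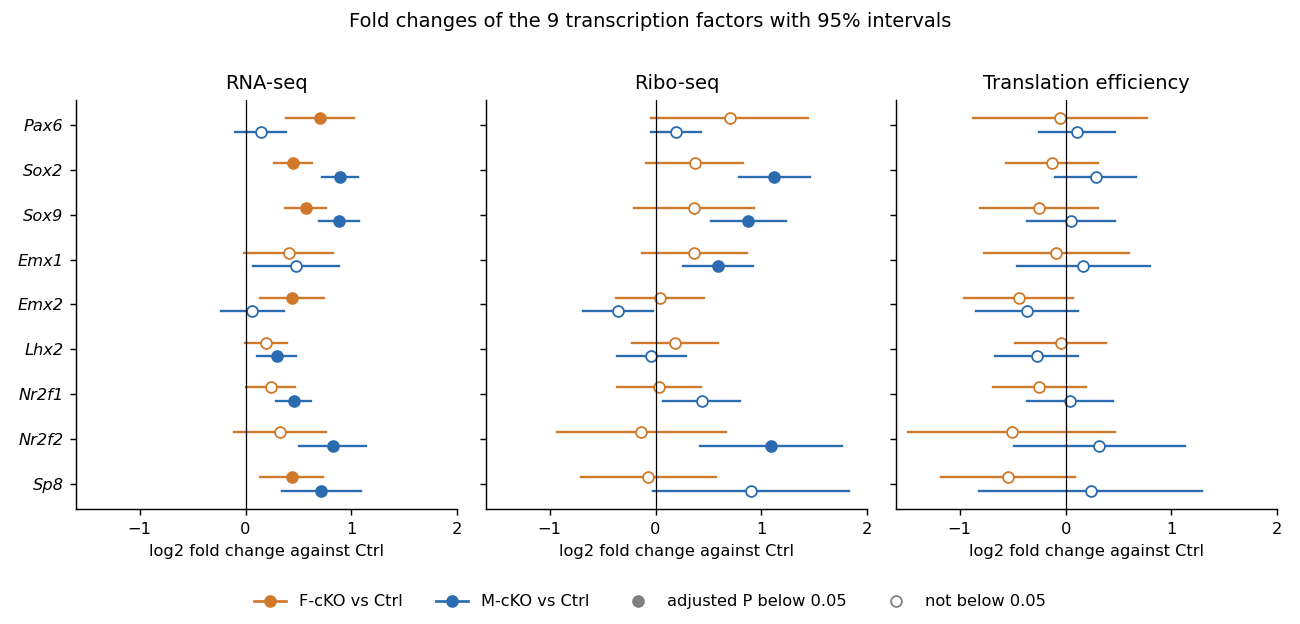
Log2 fold change against Ctrl with its 95% interval for each factor in RNA-seq (left), Ribo-seq (middle) and TE (right), *F*-cKO in orange and *M*-cKO in blue; filled points have an adjusted *P* below 0.05. RNA-seq has 5 filled points for *F*-cKO and 6 for *M*-cKO, Ribo-seq has 4 for *M*-cKO, and every TE interval spans 0.

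None of the factors was called for TE, which compares footprints with transcripts in a single model over both assays. *M*-cKO against Ctrl had 1.24% of 14328 genes called higher and 0.824% lower, with 0 of the 9 among them, and 0 of the 9 had an unadjusted *P* below 0.05. DESeq2 called 538 genes higher and 472 lower and none of the 9. *F*-cKO against Ctrl (14322 genes) and *M*-cKO against *F*-cKO (14314 genes) had 0.0% called, with 1244 and 543 genes at an unadjusted *P* below 0.05. *Nr2f2* was the 1 factor among these, in *M*-cKO against *F*-cKO (0.80 ± 0.30, unadjusted *P* = 0.0241, adjusted *P* = 0.929), and DESeq2 called none of the factors in either (6 genes higher and 37 lower in the first, 22 and 2 in the second). The TE changes in *M*-cKO ran from -0.37 (*Emx2*) to 0.32 (*Nr2f2*). For *Sox2* the change was 0.29 with a 95% interval of -0.10 to 0.67, for *Sox9* 0.05 (-0.36 to 0.47), and for *Sp8* 0.24 (-0.81 to 1.29), so changes of these sizes were neither shown nor excluded. In *F*-cKO all 9 values were negative, from -0.54 (*Sp8*) to -0.05 (*Lhx2*), beside a median of -0.00 over all genes tested, and each interval spanned 0. Negative values were not particular to the 9. Of 29 further progenitor and patterning transcription factors 4 were positive (median -0.36). So were 0 of 4 intermediate progenitor markers (median -0.64) and 1 of 9 eminence markers (-0.41). Medians were positive for markers of endothelium (2.64) and meninges (1.63).

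The paralogues *Emx1* and *Emx2* differed in how transcripts and footprints were divided between them. In Ctrl RNA-seq *Emx1* had 2.66, 2.97 and 2.07 times the FPKM of *Emx2*, while in Ctrl Ribo-seq it had 0.679, 0.724 and 0.723 times the RPKM. *Emx1* was thus the more abundant transcript and *Emx2* the gene with more footprints per length, in every Ctrl library. In *M*-cKO the RNA-seq ratio was 3.46, 3.46 and 3.47, and the Ribo-seq ratio 1.15, 1.57 and 1.41. Every *M*-cKO library exceeded every Ctrl and *F*-cKO library in both assays, with *F*-cKO ratios of 2.32 to 2.75 in RNA-seq and 0.783 to 0.958 in Ribo-seq. The ratio was chosen after its values were seen and was not tested; 3 libraries against 3 cannot go below an exact permutation *P* of 0.1.

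**Figure D4:**
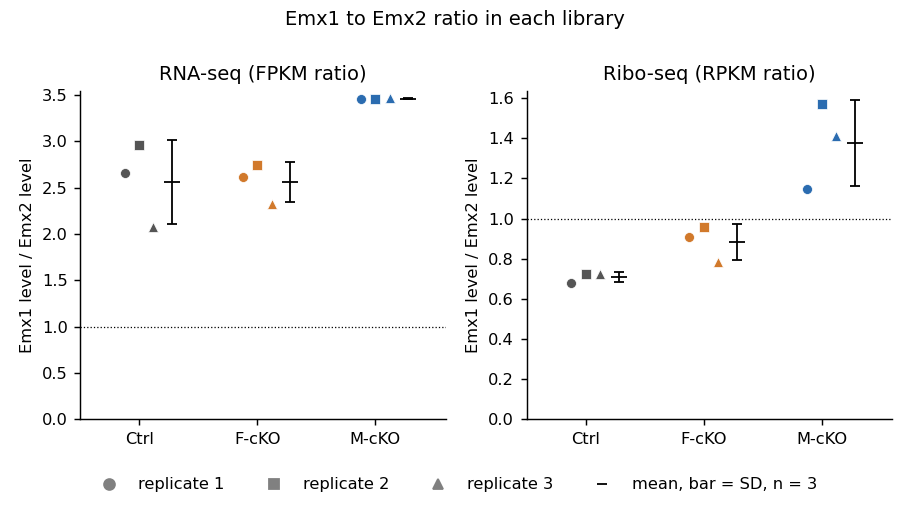
Ratio of *Emx1* to *Emx2* in each library, from RNA-seq FPKM (left) and Ribo-seq RPKM (right), with symbols for replicates 1 to 3, the mean with SD (n = 3) and a dotted line at 1. In RNA-seq all ratios are above 2; in Ribo-seq the 6 Ctrl and *F*-cKO libraries are below 1 and the 3 *M*-cKO libraries are between 1.15 and 1.57.

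*Nr2f2* and *Sp8* are made in the ganglionic eminences as well as in cortex, so 9 markers of the eminences and their interneurons (*Dlx1*, *Dlx2*, *Dlx5*, *Dlx6*, *Gad1*, *Gad2*, *Lhx6*, *Nkx2-1* and *Gsx2*) were read beside them. In *M*-cKO RNA-seq all 9 of the 9 rose, beside 15.5% of all genes, with a median log2 fold change of 1.06. Their summed FPKM was 171, 159 and 126 compared with 88.2 to 90.2 in Ctrl and 85.2 to 118 in *F*-cKO. *Nkx2-1*, the ventral selector of the medial eminence, went from 0.332 to 0.816 FPKM in Ctrl to 2.80 to 5.18 FPKM in *M*-cKO (2.76 ± 0.30, adjusted *P* = 0.000108). *Dlx2* rose by 1.11 ± 0.11 (adjusted *P* = 6.84e-05). In *F*-cKO RNA-seq 4 of the 9 rose (*Gad2*, *Nkx2-1*, *Dlx2* and *Gsx2*) and 0 fell, beside 11.5% and 9.57% of all genes. Between 8 and 9 of the markers passed in *M*-cKO RNA-seq when each library was left out in turn, and between 1 and 4 in *F*-cKO.

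In Ribo-seq the marker sum was also lowest of the *M*-cKO group in replicate 3. The summed RPKM was 119, 129.7 and 66.5 in *M*-cKO replicates 1, 2 and 3, compared with 39.8 to 59.8 in Ctrl. Replicate 3 is the library in which *Sp8* footprints were at the Ctrl level (1.84 RPKM). It was lowest of the *M*-cKO group for 6 of the 9 factors. These were *Sp8*, *Nr2f2* (21.0 RPKM), *Sox2* (59.9 RPKM), *Sox9* (49.7 RPKM), *Nr2f1* (41.4 RPKM) and *Pax6* (4.73 RPKM). *Pax6* did not pass in *M*-cKO against Ctrl in either assay. Not every factor followed the marker sum, since *Lhx2* footprints were highest in that library (39.8 RPKM). In RNA-seq, where the sum was also lowest in replicate 3, that replicate was highest of the *M*-cKO group for 5 factors and lowest for 3. The 5 were *Pax6* (6.04 FPKM), *Sox9* (21.9 FPKM), *Emx1* (42.7 FPKM), *Emx2* (12.3 FPKM) and *Lhx2* (111 FPKM). Of the 9 markers 5 rose in *M*-cKO Ribo-seq and 0 fell, beside 7.13% and 7.5% of all genes. The number passing was 8 without *M*-cKO replicate 3 and 0 without Ctrl replicate 2 or Ctrl replicate 3. It was 1 without *M*-cKO replicate 1, and 2 without Ctrl replicate 1 or *M*-cKO replicate 2. Of 4 genes listed as markers of caudal eminence interneurons (*Prox1*, *Htr3a*, *Adarb2* and *Sp9*), *Sp9* alone rose in *M*-cKO, in both assays. Of all genes, 15.5% rose in RNA-seq and 7.13% in Ribo-seq. Whether the 4 genes are particular to the caudal eminence was not tested. In *M*-cKO against *F*-cKO RNA-seq 3 of the 4 were higher (median 0.52), beside 13.1% of all genes, and 1 to 3 with 1 library left out. In *F*-cKO RNA-seq *Sp9* rose as well (0.62 ± 0.14, adjusted *P* = 0.0161) and *Htr3a* fell (-0.99 ± 0.19, adjusted *P* = 0.00829). The part of eminence cells in the rise of *Nr2f2*, *Sp8*, *Nr2f1*, *Sox2* and *Sox9* was not tested.

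**Figure D5:**
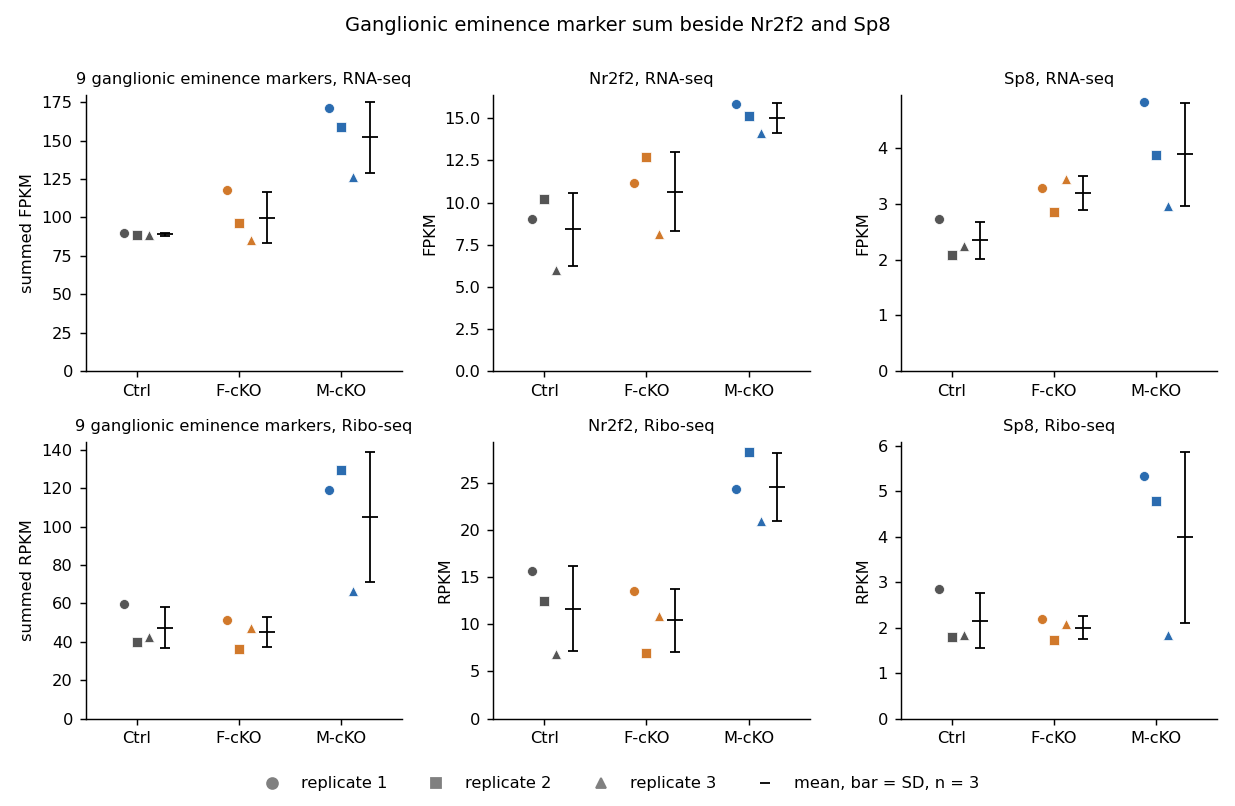
Summed level of 9 ganglionic eminence markers (left), *Nr2f2* (middle) and *Sp8* (right) in each library, RNA-seq FPKM above and Ribo-seq RPKM below, with symbols for replicates 1 to 3 and the mean with SD (n = 3). *M*-cKO replicate 3 (triangle) is the lowest *M*-cKO library in all 6 panels, at 66.5 for the Ribo-seq marker sum and 1.84 for *Sp8* footprints.

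Other genes of the same networks were counted for context, from lists chosen with earlier results known. Of 29 further progenitor and patterning transcription factors, 16 rose and 2 fell in *F*-cKO RNA-seq, and 16 rose and 5 fell in *M*-cKO RNA-seq, with medians of 0.39 and 0.45. Of all genes, 11.5% rose and 9.57% fell in *F*-cKO RNA-seq, and 15.5% and 14.1% in *M*-cKO RNA-seq, so the shares that fell were near those of all genes. *Nr2e1* (Tlx, a stem cell receptor, 0.94 ± 0.14, adjusted *P* = 0.00409) and *Id4* (0.93 ± 0.14, adjusted *P* = 0.00409) had the smallest *P* values of those that rose in *F*-cKO. *Etv4*, a target of FGF signalling, fell (-0.93 ± 0.14, adjusted *P* = 0.0041), as did *Lmo4* (-0.64 ± 0.11, adjusted *P* = 0.00486). In *M*-cKO the smallest *P* values belonged to *Sox1*, a relative of *Sox2* (0.91 ± 0.08, adjusted *P* = 3.79e-05), and *Gli3*, a transcription factor of Hedgehog signalling (1.38 ± 0.14, adjusted *P* = 8.27e-05). *Etv4* (-1.07 ± 0.14, adjusted *P* = 0.000297) and *Pou3f2* (-0.48 ± 0.08, adjusted *P* = 0.00158) fell. In *M*-cKO Ribo-seq 6 of the 29 rose and 2 fell, beside 7.13% and 7.5% of all genes. Leaving out each library in turn gave 10 to 17 that rose in *F*-cKO RNA-seq, 13 to 15 in *M*-cKO RNA-seq and 1 to 8 in *M*-cKO Ribo-seq. The number that fell was 2, 5 to 6 and 0 to 4 in that order.

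Structural and metabolic genes of radial glia were called in both directions. Of 18 such genes, 10 rose and 5 fell in *F*-cKO RNA-seq (median 0.23), and 3 rose and 6 fell in *M*-cKO RNA-seq (median -0.08), where 11.5% and 9.57% of all genes were called higher and lower in *F*-cKO, and 15.5% and 14.1% in *M*-cKO. The 3 that rose in *M*-cKO are thus a share near that of all genes. In *M*-cKO *Tnc*, an extracellular matrix protein (-1.62 ± 0.11, adjusted *P* = 9.86e-06), and *Fabp7*, the fatty acid binding protein of radial glia (-0.97 ± 0.08, adjusted *P* = 2.56e-05), fell, while *Notch1* (0.84 ± 0.10, adjusted *P* = 0.000121) and the cycling marker *Mki67* (0.81 ± 0.10, adjusted *P* = 0.000163) rose. *Fabp7* went from 607, 519 and 654 FPKM in Ctrl to 308, 305 and 304 FPKM in *M*-cKO, in the libraries where *Sox2* and *Sox9* were highest. In *F*-cKO *Notch1* (0.91 ± 0.11, adjusted *P* = 0.00293) and *Mki67* (0.95 ± 0.12, adjusted *P* = 0.00293) rose, and *Tnc* (-0.62 ± 0.09, adjusted *P* = 0.00379) and *Mfge8* (-0.31 ± 0.06, adjusted *P* = 0.00705) fell. In *M*-cKO Ribo-seq 4 rose and 5 fell, beside 7.13% and 7.5% of all genes. Set directly against *F*-cKO, *M*-cKO RNA-seq had 12 of the 18 lower and 0 higher, beside 14.3% and 13.1% of all genes. With each library left out in turn, 6 to 10 rose and 3 to 5 fell in *F*-cKO RNA-seq, with the lowest counts, 6 and 3, without Ctrl replicate 3. In *M*-cKO Ribo-seq 1 to 4 rose and 2 to 5 fell, with the lowest counts, 1 and 2, without Ctrl replicate 2.

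Signals and receptors that pattern the cortex, such as the Wnt, Bmp and Fgf proteins, were counted in the same way. Of 21 tested from a list of 22, 8 rose and 1 fell in *F*-cKO RNA-seq, and 4 rose and 1 fell in *M*-cKO RNA-seq. Of all genes, 11.5% and 15.5% were called higher and 9.57% and 14.1% lower, so the share that rose in *M*-cKO was near that of all genes. With each library left out in turn, 4 to 8 rose in *F*-cKO, with 4 without Ctrl replicate 3 or *F*-cKO replicate 3 and 5 without *F*-cKO replicate 2, and 4 to 10 rose in *M*-cKO, with 10 without Ctrl replicate 2. *Wnt7b* (0.43 ± 0.07, adjusted *P* = 0.00459) and *Sfrp1*, a secreted Wnt antagonist (0.45 ± 0.09, adjusted *P* = 0.00782), had the smallest *P* values of those that rose in *F*-cKO. The median change of the list was also 0.43. *Bmp4* fell in *F*-cKO (-1.38 ± 0.41, adjusted *P* = 0.0411). *Fgf15*, a growth factor of ventricular zone progenitors (1.65 ± 0.33, adjusted *P* = 0.00385), and *Wnt8b* of the cortical hem (1.01 ± 0.23, adjusted *P* = 0.00711) had the smallest *P* values of those that rose in *M*-cKO. The Wnt co-activator *Rspo2* fell there (-0.69 ± 0.20, adjusted *P* = 0.0225). In *M*-cKO Ribo-seq 16 of the 22 were tested, and the receptor gene *Fgfr1* was the 1 that passed (-0.38, adjusted *P* = 0.0419). This share is near that of all genes, of which 7.13% were called higher and 7.5% lower. With each library left out in turn, 0 to 1 rose and 0 to 1 fell.

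The genes whose RNA-seq pattern over the 9 libraries lay closest to each factor were found by the root mean square difference of log2(FPKM + 0.1), centred on Ctrl, among 11263 protein-coding genes. *Cdc25c* (0.06) and *Rbl1* (0.06), both of the cell cycle, were closest to *Pax6*, where the median gene differed by 0.48. *Kirrel* (0.08) and *Prps1l3* (0.08) were closest to *Sox2*, and *Sipa1l2* (0.06) and *Efnb1* (0.08) to *Sox9*. *Rbms2* (0.11) and *Smad6* (0.12) lay nearest *Emx1*, *Sstr2* (0.08) and *Wwtr1* (0.09) nearest *Emx2*, and *Igsf8* (0.04) and *Olfml3* (0.04) nearest *Lhx2*. *Mpp2* (0.05) and *Mon1b* (0.07) were nearest *Nr2f1*, *Wfs1* (0.12) and *Ier5l* (0.13) nearest *Nr2f2*, and *E130308A19Rik* (0.09) and *Zfp292* (0.11) nearest *Sp8*. These likenesses describe 9 libraries that share 3 groups and are given without a test.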

How the data were processed

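The data were 18 RNA-seq and Ribo-seq libraries of E15.5 cerebral cortex, 3 per genotype and assay, grouped by the titles and genotypes in the labels. RNA-seq reads (paired, 150 bp) were aligned by the authors using Hisat2 version 2.0.5, and they deposited gene counts, whose counting tool is not given in the sources used here, and FPKM values. For Ribo-seq, the authors treated lysates with cycloheximide and RNase I, mapped fragments with TopHat2, counted them with HTSeq to give the deposited counts, and made RPKM values from them. The submitters' processing notes also name mm10 and DESeq2 1.14.1. Ribo-seq genes with blank counts (40490) were left out.

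Counts were tested in R 4.3.3 with edgeR 4.0.16 (filterByExpr with minimum count 10 and minimum total 15, TMM, quasi-likelihood test over the 6 libraries compared). TE was tested in the same way over 12 libraries, as the assay-by-genotype term. Adjusted *P* values are Benjamini-Hochberg values over every gene tested, with a threshold of 0.05. SE values are those of the log2 fold change, and intervals use the t distribution of the fit at 95%. FPKM and RPKM were used as deposited and not tested. The comparisons with Ctrl were tested on simulated data. Alternatives were DESeq2 1.42.0, RLE scaling, no filter, 1 fit over all libraries, a replicate block, protein-coding genes only, and each library left out. TE with genes that pass the filter in each assay, and the counts of gene lists without each library, were added after seeing the data. The 9 genes and all lists were chosen with earlier results of these data known. Named genes were the 9, *Fto* and *Mettl3*, overlapping genes, the 2 genes with the smallest *P* in each direction per list in both RNA-seq comparisons with Ctrl, and the 2 genes nearest in pattern to each factor. *Fgfr1*, *Sp9*, *Htr3a* and the single markers of other cells were chosen after their values were seen. Symbols matched 54723 of 55153 RNA-seq identifiers through RefSeq of GRCm38.p6, from which promoter sequences and gene positions came. Some genes of the lists are not reported here and were left out of their counts and sums.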

Additional observations from a re-analysis of the deposited data

How the results depend on the processing

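Without the filter on low counts, 8 factors rose in *F*-cKO RNA-seq in place of 5 (*Emx1*, *Nr2f1* and *Nr2f2* gained), where 2320 of 30597 genes were called higher, compared with 1955 of 16944 with the filter. *Emx1* was also gained in *M*-cKO RNA-seq and *Nr2f1* between the knockouts. With all 9 libraries in 1 fit, *Sp8* was lost in *F*-cKO RNA-seq (adjusted *P* = 0.0723), 1 factor was lower in *M*-cKO than in *F*-cKO RNA-seq in place of 2 (*Emx2*, 0.0563, lost), and 0 rose in *M*-cKO Ribo-seq in place of 4. DESeq2 called 1 factor higher in *M*-cKO than in *F*-cKO Ribo-seq in place of 0. With each library left out in turn, the number that rose was 3 to 5 in *F*-cKO RNA-seq, 5 to 7 in *M*-cKO RNA-seq and 1 to 6 in *M*-cKO Ribo-seq, and between the knockouts in RNA-seq 2 to 4 were higher and 1 to 2 lower. The number of all genes called higher ran from 984 to 1868, from 2048 to 2584 and from 115 to 1303 in the first 3 of these. The cause was not tested.

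Signs turned only for values that had not passed. In *F*-cKO TE with protein-coding genes only, *Pax6* was 0.0117 and *Lhx2* 0.0115. With libraries left out, the log2 fold changes that turned sign ran as follows. RNA-seq *Emx2* in *M*-cKO ran from -0.0568 to 0.20, and *Emx1* between the knockouts from -0.0507 to 0.14. *F*-cKO Ribo-seq gave -0.0816 to 0.13 for *Emx2*, -0.0879 to 0.14 for *Nr2f1*, -0.41 to 0.16 for *Nr2f2* and -0.17 to 0.21 for *Sp8*, and *M*-cKO Ribo-seq -0.13 to 0.0878 for *Lhx2*. *F*-cKO TE gave -0.29 to 0.22 for *Pax6*, -0.32 to 0.018 for *Sox2*, -0.25 to 0.145 for *Emx1* and -0.17 to 0.0497 for *Lhx2*. *M*-cKO TE gave -0.0295 to 0.19 for *Sox9*, -0.0951 to 0.14 for *Nr2f1* and -0.00862 to 0.57 for *Sp8*. TE between the knockouts gave -0.16 to 0.32 for *Pax6* and -0.0501 to 0.17 for *Emx2*.

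With a replicate block, 5 factors rose in *F*-cKO RNA-seq (*Emx2*, adjusted *P* = 0.103, and *Sp8*, 0.0672, lost; *Nr2f1*, 0.0445, and *Nr2f2*, 0.025, gained), 5 in *M*-cKO RNA-seq (*Lhx2*, 0.0513, lost) and 5 in *M*-cKO Ribo-seq (*Nr2f1*, 0.043, gained), in edgeR. The block moved the number of all genes called higher from 1955 to 1275, from 2630 to 2405 and from 1020 to 681 in these. Deviations of same-numbered libraries from their group means correlated at -0.23 to 0.221 in RNA-seq, -0.346 to 0.182 in Ribo-seq and -0.345 to 0.319 between the assays, so the numbers were not taken to pair the libraries. Ribo-seq depth differed by 3.27 times between libraries, and its part in the width of the TE intervals was not tested.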
